A study of Equus caballus with 21 samples.

Results

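FGF9, the gene of fibroblast growth factor 9, was followed in 21 RNA sequencing libraries of horse endometrium. It was identified by its Entrez gene ID, 100050353, and is 1 of the 24942 genes in the deposited count table, of which 15265 had a count in any library. Warmblood mares were biopsied on day 12, either pregnant or in an estrous cycle without insemination, and the luminal epithelium, the glands and the stroma were isolated from frozen sections by laser capture microdissection. Ovulation had been induced with human choriogonadotropin in both states, and for the pregnant state the mare had been inseminated, with cooled semen. There were 4 pregnant and 5 cyclic luminal libraries, 4 pregnant and 4 cyclic glandular libraries, and 2 pregnant and 2 cyclic stromal libraries. The letters B, C, J, M and U in the labels name 5 mares, although the design text speaks of 6. The same letter in several libraries is the same animal, and mare J gave a cyclic luminal library only. Each captured region holds many cells, so fewer cells that make a transcript and less transcript per cell cannot be told apart.

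Fibroblast growth factors are secreted proteins that bind receptor tyrosine kinases, FGFR1 to FGFR4, together with heparan sulfate chains on the cell surface. The receptors signal through the adaptor FRS2 to the RAS and MAP kinase cascade and through PI3 kinase, and the signal switches on its own inhibitors of the Sprouty and SPRED families. FGF9 binds preferentially to FGFR3 and to the c splice forms of FGFR1 and FGFR2, and is best known for signals from epithelium to mesenchyme. In the human endometrium FGF9 is known as a product of stromal cells that promotes their proliferation. Counts per gene do not separate the splice forms of a receptor.

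Total counts per library ran from 136259 to 1467510. The pregnant luminal library of mare M was the smallest of all, with 4648 genes detected, and with the cyclic glandular library of mare M it is missing from one of the authors' normalized tables, which holds 19 libraries. Pregnant luminal libraries were shallower (136259 to 440188 counts) than cyclic luminal ones (324704 to 1382614 counts). RN18S, a ribosomal RNA gene, took 16.9 ± 14.6% of the counts in pregnant luminal libraries and 28.9 ± 12% in cyclic luminal ones (SD, n = 4 and 5). In the pregnant luminal library of mare M it took 0.452%, against 34.9% in pregnant mare B, 11.4% in C and 21% in U, and from 17.3% to 47.5% in the cyclic luminal libraries. A number of libraries had an additional amplification step, and the labels do not say which.

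Pooled over all libraries, FGF9 gave almost all its counts in luminal epithelium. Of its 939 counts in all libraries, 917 (97.7%) lay in the 9 luminal libraries, which held 38% of all counts. The 8 glandular libraries held 19 FGF9 counts (2.02%) with 47% of all counts, and the 4 stromal libraries held 3 (0.319%) with 15% of all counts. The pregnant luminal libraries of mares B, C and U together gave 795 counts, or 84.7% of the total, and that of mare C alone gave 45.3%.

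In luminal epithelium, FGF9 had 182 counts in mare B, 425 in mare C, 1 in mare M and 188 in mare U when pregnant. The cyclic luminal libraries gave 34 counts in mare B, 77 in mare C, 3 in mare J, 1 in mare M and 6 in mare U. The deepest luminal library was thus cyclic, that of mare C with 1382614 counts in all, and it held fewer FGF9 counts than any of the 3 pregnant libraries with high values. As CPM, which are counts scaled to the TMM-normalised library size, the pregnant libraries stood at 465.97 (B), 1002 (C), 5.15 (M) and 485 (U), and the cyclic libraries at 70.6 (B), 69.0 (C), 5.59 (J), 3.13 (M) and 9.91 (U). Pregnant mares B, C and U lay above every cyclic library, the lowest of them 6.6 times the highest cyclic value, whereas pregnant mare M fell among the low cyclic libraries, so the groups overlapped through that library alone. In mare M a single count was found in either state. A floor of 3 counts corresponds to 15.5 CPM in the pregnant and 9.38 CPM in the cyclic luminal library of mare M, so FGF9 was not quantified in this animal.

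The counting error of the high libraries was small beside these differences. Scaled to the raw library total instead, FGF9 stood at 1132 CPM in pregnant mare C (exact 95% binomial interval 1027 to 1244) and 55.7 in cyclic mare C (44.0 to 69.6). In mare U the values were 517 (446 to 597) when pregnant and 9.46 (3.47 to 20.6) when cyclic. In mare B they were 413 (356 to 478) when pregnant and 84.5 (58.5 to 118) when cyclic. These intervals did not overlap within any of the 3 mares. Each rests on a single library, so it covers counting error only and leaves out variation between captures, biopsies and animals. The reads were amplified and carry no molecular identifiers, so even the counting error may be understated.

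**Figure D1:**
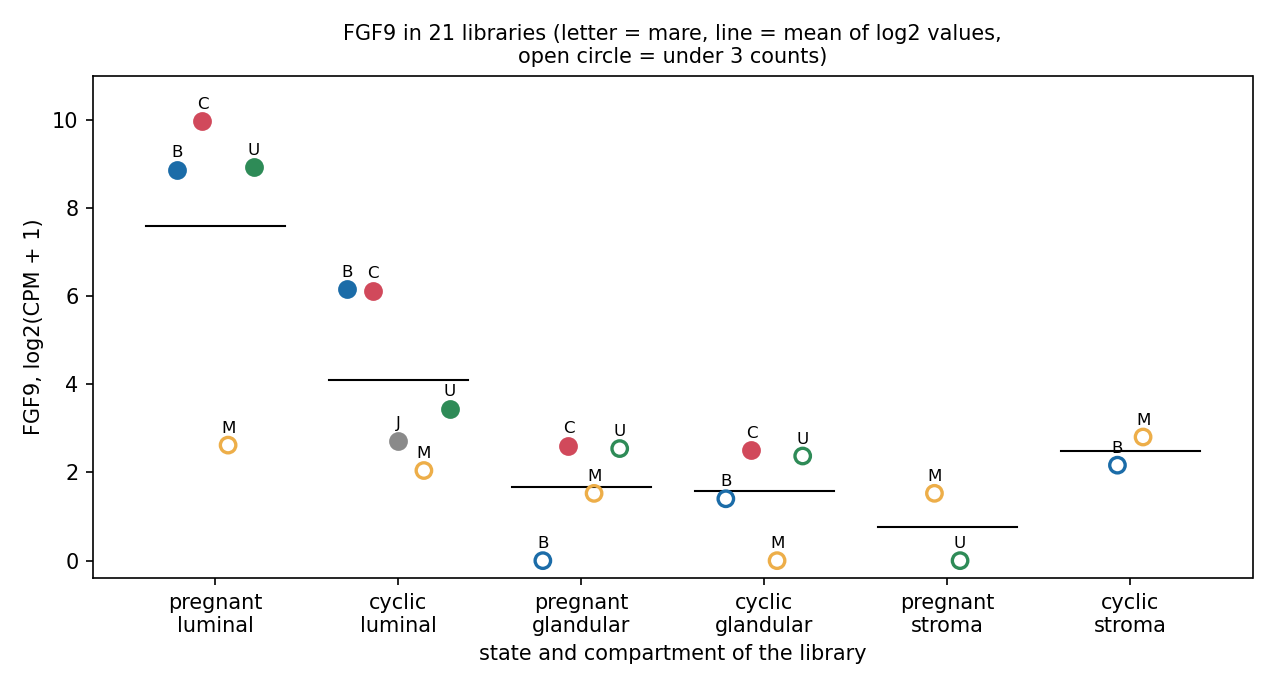
FGF9 in each of the 21 libraries as log2(CPM + 1), by state and compartment; letters name the mare, lines are means of the log2 values, and open circles are libraries with under 3 FGF9 counts. Pregnant luminal mares B, C and U stand above all other libraries, and the glandular and stromal libraries lie at or below 5.99 CPM.

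The mean level was 490 ± 407 CPM in pregnant luminal epithelium and 31.6 ± 34.9 CPM in cyclic luminal epithelium (SD, n = 4 and 5), and 651 ± 304 CPM in pregnancy without mare M (n = 3). FGF9 was higher in pregnancy by 3.90 ± 0.95 on the log2 scale (SE; edgeR quasi-likelihood test with Benjamini-Hochberg adjustment, adjusted p = 0.0214). Of 4344 genes tested in this comparison, 19 passed (0.437%), 15 higher and 4 lower in pregnancy, and 339 had an unadjusted p under 0.05. FGF9 ranked 10th by p among the genes tested. With the mare as a block, over the 4 mares that gave both states, edgeR estimated 3.56 and an adjusted p of 0.206, so the call was lost while the direction stayed. An exact permutation test of FGF9 alone, which borrows no spread from other genes, gave a difference in mean log2(CPM + 1) of 3.50 between the states (two-sided p = 0.111 over 126 assignments, of which the smallest possible p is 0.00794). Exact sign flips over the 4 mares with both states gave a difference of 3.15 and the smallest p that 4 pairs allow, which lies above 0.05. The pair of mare M, with 1 count in each state, entered as a positive difference through the scaling to library size alone.

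Within the mares, FGF9 was higher in the pregnant than in the cyclic luminal library by 6.60-fold in mare B (exact 95% counting interval 4.56 to 9.83), 14.5-fold in mare C (11.4 to 18.8) and 48.9-fold in mare U (22.1 to 135). The spread of these ratios came more from the cyclic than from the pregnant libraries, since mare U was high in pregnancy and low in the cycle. No ratio could be given for mare M. The call in luminal epithelium depended on single libraries. Without pregnant mare C the log2 difference was 3.37 (edgeR adjusted p = 0.267), and without pregnant mare B it was 3.90 (edgeR adjusted p = 0.0937). Without pregnant mare M it was 4.30 (edgeR adjusted p = 0.000247), and 37 genes were called. The call was also lost when cyclic mare J, M or U was left out (edgeR adjusted p = 0.0646, 0.126 and 0.079), which are the cyclic libraries with the fewest FGF9 counts.

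**Figure D2:**
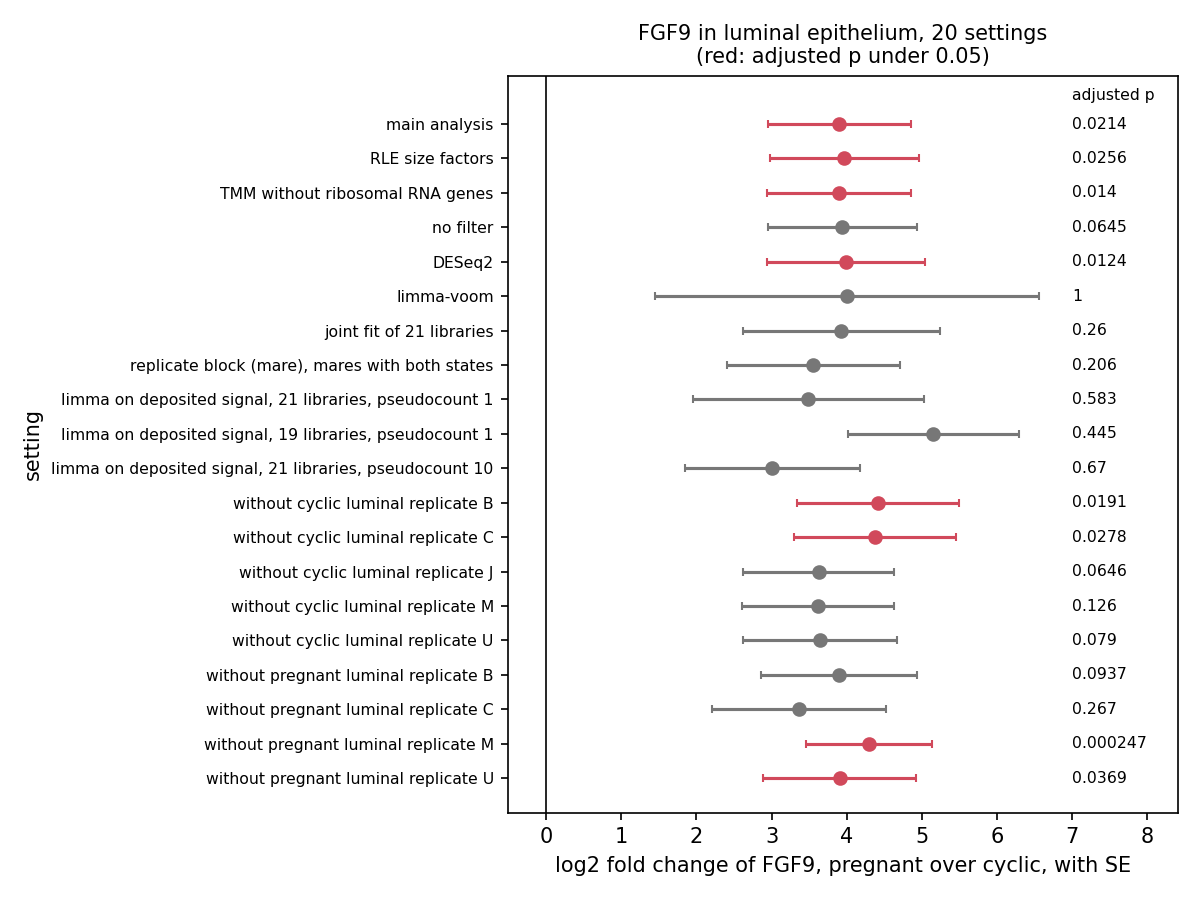
Log2 fold change of FGF9 in luminal epithelium, pregnant over cyclic, with its SE (horizontal bars) under the main analysis and 19 alternatives (rows); adjusted p-values stand at the right and red marks those under 0.05. All estimates lie between 3.01 and 5.15, whereas 12 of the 19 alternatives miss the threshold.

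Glandular epithelium held no comparable level in either state. When pregnant, mares B, C, M and U had 0, 9, 1 and 2 FGF9 counts in their glandular libraries, against 2, 3, 0 and 2 counts in the cyclic glandular libraries of the same mares. These correspond to 2.95 ± 2.45 CPM in pregnant and 2.63 ± 2.20 CPM in cyclic glands (SD, n = 4 each). The values of the states overlapped fully, and only the libraries of mare C reached 3 counts in either state. FGF9 did not pass the filter on low counts in this comparison, in which 3 of 4816 genes passed the test (0.0623%), and it was therefore not tested there. In stroma, FGF9 had 1 count in pregnant mare M and 0 in pregnant mare U, against 1 count each in cyclic mares B and M. The group means of 0.942 ± 1.33 CPM in pregnant and 4.74 ± 1.77 CPM in cyclic stroma (SD, n = 2 each) rest on single counts, and all 4 libraries lay under the floor of 3 counts. FGF9 was not tested in stroma, where 0 of 2212 genes passed the edgeR test (0%), with 88 at an unadjusted p under 0.05. DESeq2 and limma-voom also called 0 genes there, with 195 and 26 at an unadjusted p under 0.05. Ordered by mean level, pregnant luminal epithelium was followed by cyclic luminal epithelium, cyclic stroma, pregnant glandular epithelium, cyclic glandular epithelium and pregnant stroma. The order of the last 4 groups rests on 0 to 9 counts a library and was not tested. The values of cyclic stroma, from 3.49 to 5.99 CPM, did not overlap those of pregnant stroma, from 0 to 1.88 CPM, but all 4 libraries had at most 1 count.

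Both epithelia of the same biopsy could be compared in 8 biopsies, and FGF9 was higher in the luminal library in 8 of 8. In the pregnant biopsies the luminal level was at least 68.1-fold higher than the glandular one in mare B, where the glandular library had no count and was set to the floor of 3. It was 197-fold higher in mare C (exact 95% counting interval 103 to 433) and 100.5-fold higher in mare U (27.4 to 836). In the cyclic biopsies it was 42.9-fold higher in mare B (10.99 to 368), 14.7-fold higher in mare C (4.84 to 72.8) and 2.37-fold higher in mare U (0.424 to 24.0), the last within its counting error. Neither biopsy of mare M reached 3 counts in any epithelium, so no ratio was given and their direction rests on single reads. The highest level in the 12 glandular and stromal libraries was 5.99 CPM, in cyclic stroma of mare M. The luminal libraries of cyclic mares J (5.59 CPM) and M (3.13 CPM) and of pregnant mare M (5.15 CPM) lay below it.

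In pregnancy, FGF9 was higher in luminal than in glandular epithelium by 6.70 ± 1.53 on the log2 scale (SE; edgeR with the mare as a block, n = 4 mares, adjusted p = 0.00245). In that comparison 114 of 7094 genes passed (1.61%), 51 higher and 63 lower in luminal epithelium, and the median log2 difference of all genes was -1.01. In the cycle the difference was 3.51 ± 2.58 (SE; edgeR adjusted p = 0.77), which did not pass, and 82 of 7761 genes did (1.06%, median of all genes 0.37). The pregnant call was lost without mare B (5.90, edgeR adjusted p = 0.106) or mare C (6.10, edgeR adjusted p = 0.329), and without mare M it was 7.63 (edgeR adjusted p = 3.04e-06). Against stroma, with counts summed per mare over the biopsies that gave both compartments, luminal FGF9 was higher by 4.20 ± 2.89 (SE; 3 mares, edgeR adjusted p = 0.802), and 46 of 5551 genes passed (0.829%).

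Whether the pregnancy difference of FGF9 was itself greater in luminal than in glandular epithelium was tested with the biopsy as a block over 16 libraries. The difference of differences was 3.15 ± 2.22 on the log2 scale (SE; edgeR adjusted p = 0.942), and 1 of 9325 genes passed this test (0.0107%), with 436 at an unadjusted p under 0.05. The median of all genes was -1.54 in this fit. A pregnancy difference particular to the luminal epithelium was thus not shown by this test, although the glandular counts of FGF9 were close to 0 in both states. These comparisons share libraries and are not independent of each other.

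**Figure D3:**
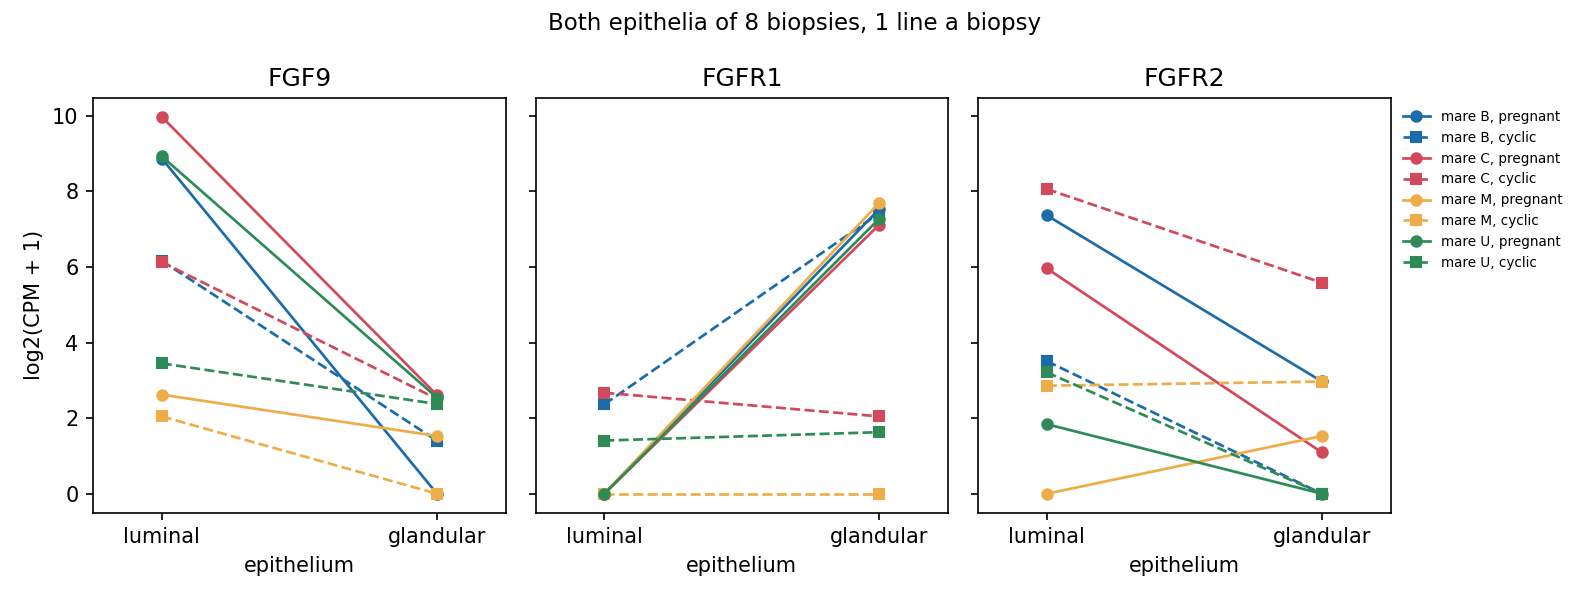
Levels of FGF9, FGFR1 and FGFR2 as log2(CPM + 1) in the luminal (left) and glandular (right) library of 8 biopsies, 1 line a biopsy; colours name the mare, solid lines pregnant and dashed lines cyclic biopsies. FGF9 lines fall from luminal to glandular in 8 of 8 biopsies. FGFR1 lines climb in the 4 pregnant biopsies and in that of cyclic mare B, and slightly in that of cyclic mare U, with 1 count in each library.

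Cell type markers in the luminal libraries were set beside these values. Trophoblast markers, which would mark conceptus cells, had 3 counts in pregnant and 6 in cyclic luminal libraries, with CDX2, GATA3, ELF5 and HAND1 at 0 in both. The 3 epithelial markers in the table were detected in both states, with a summed level of 679 to 2123 CPM in pregnant and 338 to 1219 CPM in cyclic libraries. Gland markers summed to 1046 to 2235 CPM in pregnant and 1320 to 4465 CPM in cyclic luminal libraries, below the glandular libraries (15046 to 53017 CPM when pregnant and 14411 to 40432 CPM when cyclic), with FOXA2 at 0 throughout. Fibroblast markers (6 of 7 in the table) summed to 802 to 5055 CPM in pregnant and 525 to 1700 CPM in cyclic luminal libraries, with PDGFRA at 0 in pregnancy. The stromal libraries had 3814 to 6975 CPM of them when pregnant and 5117 to 9809 CPM when cyclic. The highest luminal value belonged to pregnant mare M and lay within the pregnant stromal range, while the other luminal libraries lay below every stromal one. Ciliated cell markers (4 of 5 in the table) stood at 2163 CPM in pregnant mare B, 1038 in C, 196 in M and 1404 in U, with CAPS at 0 in all 4. The cyclic libraries had 527 CPM of ciliated cell markers in mare B, 728 in C, 1573 in J, 857 in M and 1178 in U. The pregnant luminal library with the lowest FGF9 level, that of mare M, therefore also had the lowest ciliated marker level of the pregnant luminal libraries. Its fibroblast marker level and its epithelial marker level (2123 CPM) were both the highest of these libraries. Among cyclic libraries the highest FGF9 levels, in mares B and C, lay beside the lowest ciliated marker levels. Macrophage and dendritic cell markers ran from 0 to 87.2 CPM in pregnant and from 4.96 to 197 CPM in cyclic luminal libraries, with CD14 and AIF1 at 0 in pregnancy. The part of depth and of cell composition in the FGF9 difference was not tested.

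The other fibroblast growth factor genes gave few counts. Of these 21 ligands, 14 had no count in any library, and FGF7 alone passed the filter on low counts in any comparison. FGF7 was tested in 2 of the 7 comparisons (luminal over glandular in the cycle, adjusted p = 0.59 by edgeR, and the difference of differences, adjusted p = 0.942 by edgeR) and did not pass. FGF7, a stromal growth factor that acts on epithelium through the b form of FGFR2, had 150 counts, of which 133 lay in the cyclic luminal libraries of mares B and U. It had no count in any stromal library or any pregnant luminal library. Cyclic luminal mares B, C, J, M and U had 61, 1, 5, 0 and 72 counts of it. FGF7 did not pass the filter in the luminal comparison of states. FGF10, its close relative, had 25 counts, 24 of them in the cyclic glandular library of mare U. FGF1, which binds all the receptors, had 60 counts, led by 19 in pregnant stroma of mare M and 18 in cyclic luminal epithelium of mare C. FGF11 and FGF14, factors that stay inside the cell, had 29 and 10 counts, and the 10 of FGF14 were all in pregnant stroma of mare M.

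The receptors were distributed unequally between the epithelia. FGFR1 had 710 of its 742 counts (95.7%) in glandular libraries, with 9 in luminal and 23 in stromal ones. In pregnancy it had no count in any of the 4 luminal libraries, against 81 (B), 244 (C), 110 (M) and 64 (U) counts in the glandular libraries. The pregnant glandular libraries thus held 171 ± 30.7 CPM of FGFR1 (SD, n = 4), and the pooled luminal level was at least 73.7-fold lower than the pooled glandular one, with a floor of 3 counts over the luminal group. The fitted difference, luminal over glandular, was -9.56 ± 2.44 on the log2 scale (SE; edgeR with the mare as a block, adjusted p = 0.0105), and its size depends on the prior count given to libraries without a count. It was 1 of the 2 receptors tested there, beside 1.61% of all genes called. The call was lost when any 1 mare was left out, with differences of -9.12 to -9.74 (edgeR adjusted p from 0.0569 to 0.156), and was kept under the other 6 of 10 alternatives (-9.62 to -6.87).

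FGFR1 in cyclic glandular epithelium differed between animals. When cyclic, mares B, C, M and U had 208, 2, 0 and 1 counts in glands, or 171, 3.13, 0 and 2.09 CPM, so mare B lay within the pregnant range of 138 to 207 CPM and the other 3 far below it. The state difference within glands was 1.97 ± 1.18 on the log2 scale (SE; edgeR adjusted p = 0.833) and did not pass. In stroma, FGFR1 had 32.0 CPM (17 counts) in pregnant mare M and 15.02 CPM (4 counts) in pregnant mare U. It had 0 in cyclic mare B and 12.0 CPM (2 counts) in cyclic mare M, both under the floor of 3 counts. The states were not tested for FGFR1 in stroma.

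FGFR2 had the opposite distribution, with 412 of 451 counts (91.4%) in luminal libraries. Its luminal levels were 164 CPM in pregnant mare B, 61.3 in C, 0 in M and 2.58 in U, against 10.4, 266, 22.4, 6.25 and 8.26 CPM in cyclic mares B, C, J, M and U. The states overlapped fully, and cyclic mare C alone gave 297 of the counts. The luminal state difference was -0.10 ± 1.51 on the log2 scale (SE; edgeR adjusted p = 0.995). Luminal over glandular, FGFR2 differed by 3.63 ± 2.92 in pregnancy (SE; edgeR adjusted p = 0.703) and by 2.92 ± 1.93 in the cycle (SE; edgeR adjusted p = 0.699), and neither passed. FGFR3, the receptor that FGF9 binds most strongly, had 12 counts, 11 of them in the luminal library of cyclic mare C. FGFRL1, a receptor without a kinase domain, had 34 counts, none in pregnant luminal libraries, and FGFR4 had 1.

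Of the heparan sulfate proteoglycans and FGF carriers, 1 of 15 could be tested between states in luminal epithelium. That gene was SDC4, encoding the cell surface proteoglycan syndecan-4. SDC4 had 361 CPM in pregnant mare B, 96.7 in C, 0 in M and 593 in U, against 237, 481, 125, 375 and 646 CPM in cyclic mares B, C, J, M and U. The states overlapped, with a difference of -0.46 ± 0.79 (SE; edgeR adjusted p = 0.973). The stromal libraries had 3.77 (M) and 48.8 (U) CPM of SDC4 when pregnant and 3.49 (B) and 5.99 (M) CPM when cyclic, and the luminal over stromal difference of 4.90 ± 1.76 did not pass (SE; edgeR adjusted p = 0.257). SDC1, SDC2 and the basement membrane proteoglycan HSPG2 did not pass the filter in the luminal comparison of states.

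Of 14 enzymes that build or trim heparan sulfate, 3 were tested between states in luminal epithelium and 0 passed (0.437% of all genes did), with a median log2 difference of -1.39 against -0.04 for all genes. SULF2, an extracellular sulfatase that removes sulfate groups from heparan sulfate, had 381 CPM in pregnant mare B, 51.9 in C, 10.3 in M and 77.4 in U. The cyclic luminal libraries had 137, 150, 93.2, 159 and 26.4 CPM of SULF2 in mares B, C, J, M and U. These values overlapped, and the difference was 0.25 ± 1.14 (SE; edgeR adjusted p = 0.991). HS2ST1, a sulfotransferase, differed by -1.55 ± 1.65 (SE; edgeR adjusted p = 0.968). EXTL2 and NDST1, which act in chain synthesis and N-sulfation, were detected in some luminal libraries and did not pass the filter.

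Of the 22 signal transducers, 13 were tested between states in luminal epithelium and 0 passed (0.437% of all genes did), 6 with a positive and 7 with a negative difference, and their median was -0.03 against -0.04 for all genes. SOS1, an exchange factor that activates RAS, differed by -0.69 ± 1.03 (SE; edgeR adjusted p = 0.973). PIK3R1, the regulatory subunit of PI3 kinase, had 2.56 CPM in pregnant mare B, 14.1 in C, 366 in M and 5.16 in U. In the cyclic luminal libraries it had 251, 199, 227, 531 and 198 CPM in mares B, C, J, M and U. PIK3R1 was thus lowest in the 3 pregnant libraries where FGF9 was highest, while pregnant mare M lay among the cyclic libraries for both genes. Its difference of -1.53 ± 0.97 did not pass (SE; edgeR adjusted p = 0.791). Between the epithelia in pregnancy, 17 transducers were tested and 0 passed (1.61% of all genes did), with a median of -0.59 against -1.01 for all genes.

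Of the 20 feedback inhibitors and target genes, 1 was tested between states in luminal epithelium. EGR1, an immediate early gene switched on by MAP kinase signals, had 2.56 CPM in pregnant mare B, 49.5 in C, 0 in M and 495 in U. The cyclic luminal libraries had 108, 831, 54.1, 309 and 23.1 CPM of EGR1 in mares B, C, J, M and U. The states overlapped, and the difference was -0.96 ± 0.95 (SE; edgeR adjusted p = 0.954). SPRED2, an inhibitor of RAS signalling, and FLRT2, a transmembrane protein of the family that binds FGF receptors, had no count in any pregnant luminal library. They were detected in 3 and 3 of the 4 pregnant glandular libraries, and their luminal over glandular differences of -7.03 ± 3.33 and -6.52 ± 3.29 did not pass and likewise depend on the prior count (SE; edgeR adjusted p = 0.425 and 0.456). MYC, a target of growth factor signals, had 127 counts, of which 76 lay in pregnant stroma of mare U and 42 in cyclic luminal epithelium of mare C.

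**Figure D4:**
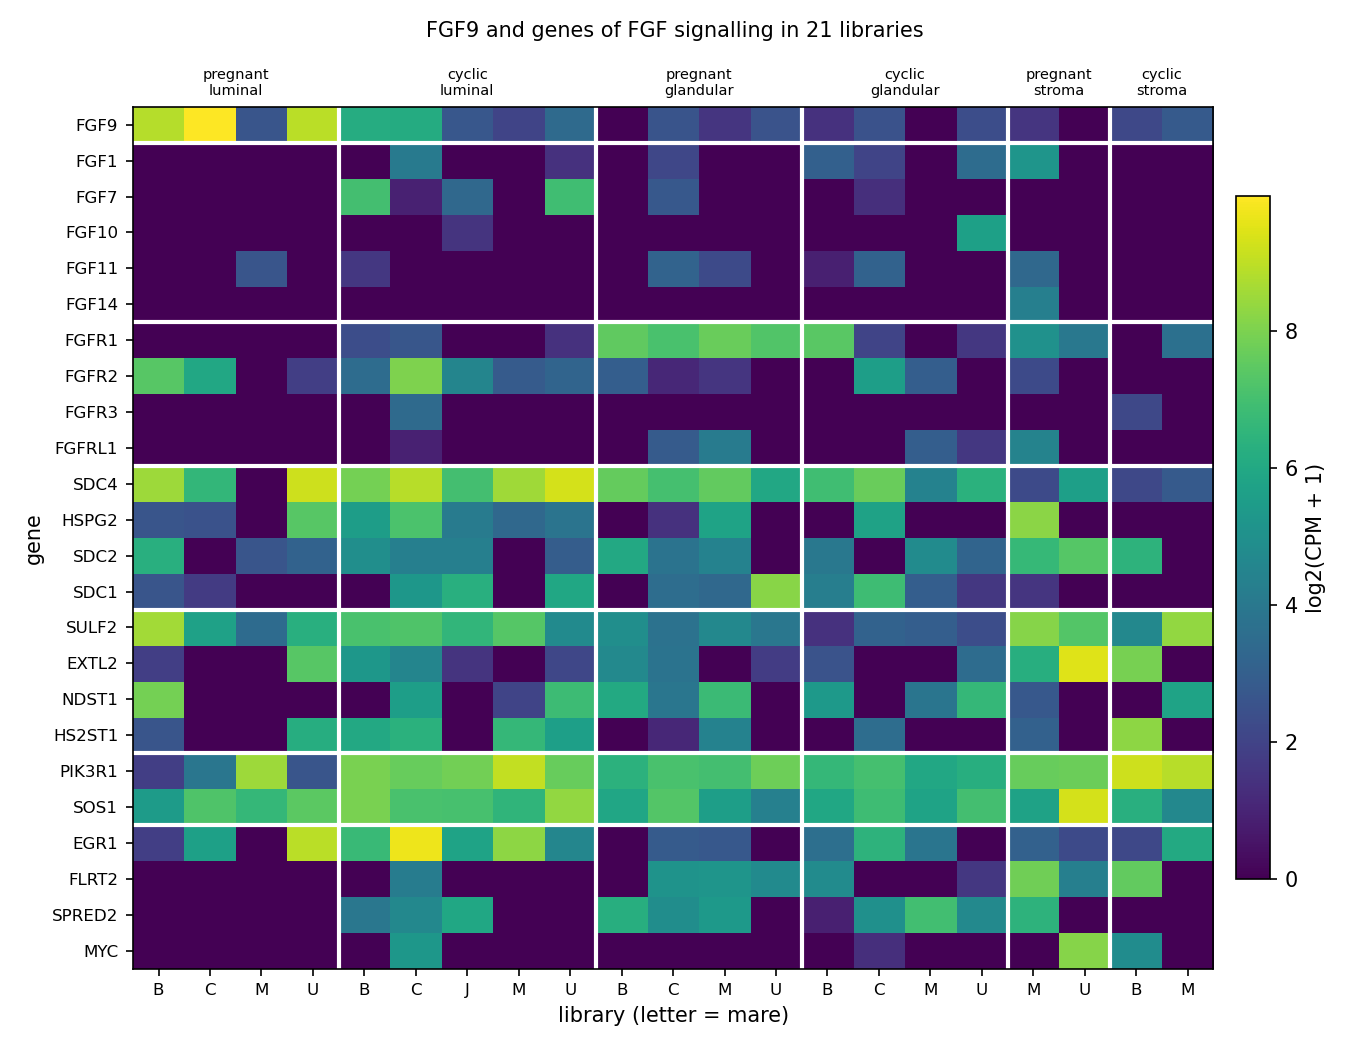
Levels of FGF9 and other FGF signalling genes (rows, in blocks of ligands, receptors, proteoglycans, heparan sulfate enzymes, transducers, and inhibitors with targets) as log2(CPM + 1) in 21 libraries (columns, letter = mare), on a colour scale from dark (0) to yellow. FGF9 is bright in pregnant luminal mares B, C and U, and FGFR1 in the 4 pregnant glandular libraries and in cyclic glandular mare B.

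The genes whose levels followed FGF9 most closely were ranked by Pearson's r of log2 CPM over the 21 libraries, among 9788 genes with a median r of 0.0164. The 10 highest with a gene symbol were MACIR (0.956), TTC39B (0.915), CDC42EP2 (0.901), CACNA1D (0.89), ATP6V0A4 (0.885), KIF19 (0.871), DRC7 (0.86), MAN2A1 (0.841), SLC9A7 (0.841) and ENDOD1 (0.819). Spearman's rho of the same genes was lower, from 0.384 for TTC39B to 0.745 for CACNA1D, and the points share animals, biopsies and library depth.

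These 10 genes were picked by their likeness to FGF9 in the same libraries. Higher levels in pregnant luminal libraries therefore follow in part from that choice. ATP6V0A4, which encodes a membrane subunit of the vacuolar proton pump, was the gene of these 10 that passed in the luminal comparison of states. It averaged 393 ± 214 CPM in pregnant and 25.6 ± 23.1 CPM in cyclic luminal libraries (SD, n = 4 and 5) and was higher in pregnancy by 3.94 ± 1.02 (SE; edgeR adjusted p = 0.0369). In pregnant luminal mare M, where FGF9 had 1 count, ATP6V0A4 stood at 6.82 on the log2 CPM scale, against 9.29, 8.58 and 8.94 in pregnant mares B, C and U and 6.02 in the highest cyclic library, that of mare B. Every pregnant luminal library thus exceeded every cyclic one for ATP6V0A4, unlike for FGF9. MACIR, a regulator of immune cell metabolism, averaged 160 ± 124 CPM in pregnant and 12.5 ± 22.5 CPM in cyclic luminal libraries (SD, n = 4 and 5), with a difference of 3.62 ± 1.52 (SE; edgeR adjusted p = 0.44). TTC39B, a regulator of lipid metabolism in mice, averaged 164 ± 132 CPM in pregnant and 16.8 ± 25.3 CPM in cyclic luminal libraries (SD, n = 4 and 5), with a difference of 3.26 ± 1.44 (SE; edgeR adjusted p = 0.498). Neither gene passed, and both had no count in pregnant luminal mare M.

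KIF19, a kinesin, and DRC7, a component of the dynein regulatory complex, belong to motile cilia. KIF19 averaged 50.8 ± 52.4 CPM in pregnant and 23.2 ± 30.1 CPM in cyclic luminal libraries (SD, n = 4 and 5; edgeR adjusted p = 0.973). DRC7 averaged 151 ± 161 CPM in pregnant and 18.97 ± 17.8 CPM in cyclic luminal libraries (SD, n = 4 and 5; edgeR adjusted p = 0.625). CACNA1D, a calcium channel subunit, had no count in any glandular or stromal library, and CDC42EP2, an effector of the small GTPase CDC42, averaged 155 ± 133 CPM in pregnant and 1.64 ± 1.85 CPM in cyclic luminal libraries (SD, n = 4 and 5). CACNA1D, CDC42EP2 and SLC9A7, a sodium-proton exchanger of the Golgi, did not pass the filter in the luminal comparison. MAN2A1, a Golgi mannosidase, and ENDOD1 differed by 1.96 ± 1.33 and 2.19 ± 1.28 between the states (SE; edgeR adjusted p = 0.835 and 0.733).

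Within the 9 luminal libraries alone, among 4343 genes with a median r of 0.066, the closest were MACIR (Pearson's r 0.979, Spearman's rho 0.957), TTC39B (0.957 and 0.929), LRRC28 (0.945 and 0.979), EMC3 (0.939 and 0.865) and TMEM230 (0.938 and 0.795). MACIR and TTC39B thus headed both rankings, and the rank order of MACIR, LRRC28 and FGF9 over the luminal libraries was nearly the same. However, MACIR had no count in cyclic mares J, M and U and in pregnant mare M, where FGF9 had 1 to 6 counts. LRRC28 had no count in either luminal library of mare M, so some of these ranks are ties. In this ranking 172 genes had an r above 0.7. LRRC28 differed by 2.05 ± 1.59 between the states, EMC3, a subunit of the endoplasmic reticulum membrane protein complex, by 2.40 ± 1.58, and TMEM230, a protein of secretory vesicles, by 2.996 ± 1.59 (SE; edgeR adjusted p = 0.898, 0.815 and 0.675). None of these passed.

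**Figure D5:**
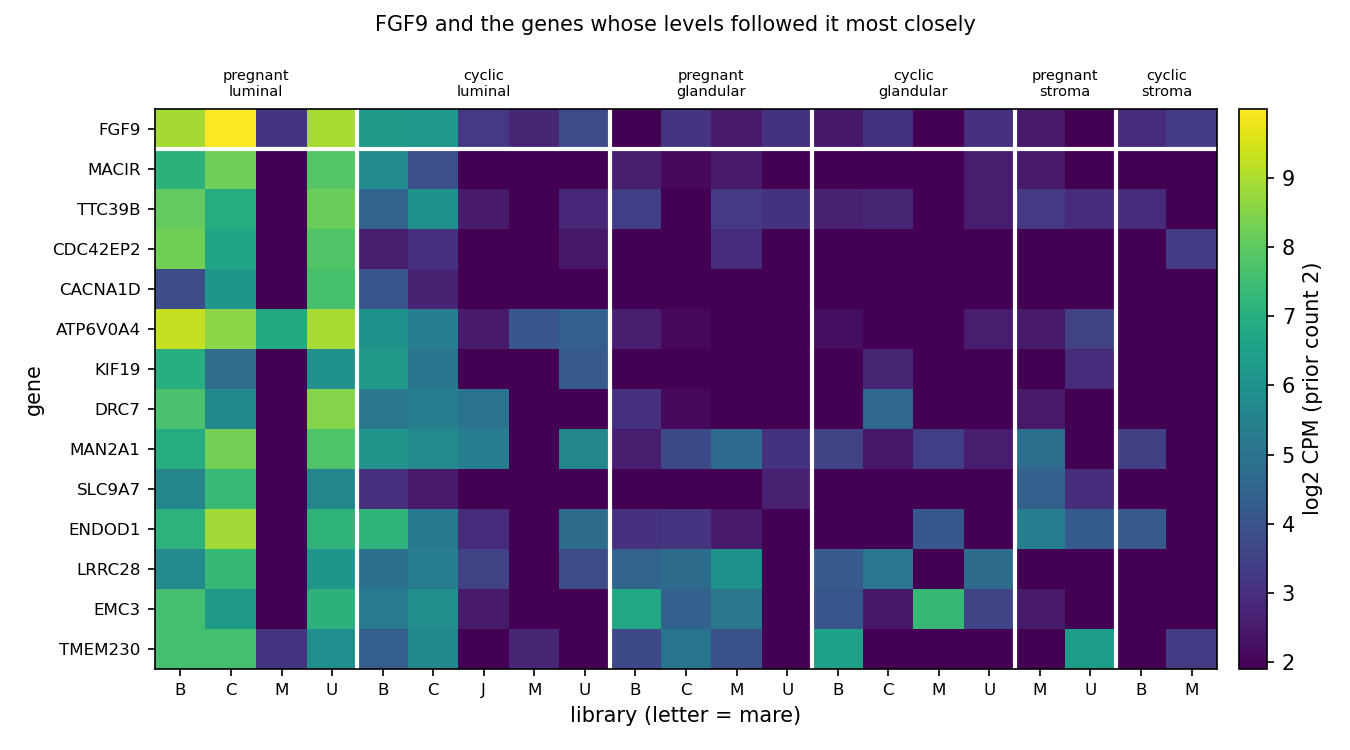
Levels of FGF9 and of the 13 genes whose levels were most like it (rows) as log2 CPM with a prior count of 2 in 21 libraries (columns, letter = mare), on a colour scale from dark (no count) to yellow. Pregnant luminal mares B, C and U are bright in most rows, and pregnant luminal mare M has no count in any row but ATP6V0A4, FGF9 and TMEM230.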

How the data were processed

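The submitters' processing notes name Trimmomatic 0.32.2, a read trimmer, and HISAT2 2.0.3, an aligner. Not given in the sources used here are the counter, genome build, annotation and strand setting, so overlapping and antisense genes cannot be told apart. The authors deposited raw read counts of 24942 gene IDs in 21 libraries and, as signal in CPM, 2 tables of counts scaled by a constant per library, with 10307 genes in 21 libraries and 10410 genes in 19. The name of the 21-library table refers to removal of duplicates, and its FGF9 values are the deposited counts over a constant of the library, so the counts may have been made after such removal. The counts were used for all main results, and the deposited signal values only as alternatives. Symbols came from a RefSeq table matched by ID (21420 IDs, 85.9%), used for names and gene order only.

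Tests used edgeR 4.0.16 in R 4.3.3 (quasi-likelihood F-tests, TMM scaling, filterByExpr with a minimum count of 10 and a minimum total of 15, adjusted p under 0.05), fitted on all genes passing the filter in each comparison. SEs were the absolute log2 difference divided by the square root of F. Levels in CPM used TMM over all 21 libraries, the floor was 3 counts in a library or group, and intervals had a confidence level of 95%. Between compartments the mare or biopsy was a block, because they came from the same animals. The states were compared without a block since mare J was cyclic only. Same letters mark the same mare, although deviations of same-lettered libraries correlated at only -0.014 to 0.051, and the blocked value stands beside the result it changes. Whether 2 libraries hold identical values was checked, and 0 pairs did. Alternatives included RLE size factors, scaling without ribosomal RNA genes, no filter, DESeq2 1.42.0, limma 3.58.1 with voom and on the signal with pseudocounts of 1 and 10, a joint fit, and leaving out libraries or mares.

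FGF9 was taken by its gene ID. Named pathway genes were the ligands and receptors with at least 10 counts, every gene past the threshold, and the 4 with the highest mean level of each other list. Likeness named the 10 highest Pearson correlations over all libraries and the 5 highest over luminal libraries, leaving out placeholder symbols. Some genes that these rules name are not reported here. The gene and the lists were chosen with earlier results of these data known. The alternatives for FGFR1, the scaling without ribosomal RNA genes between compartments and a group filter were added after seeing the data.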

Additional observations from a re-analysis of the deposited data

Results flagged for a closer look

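In 3 of 11 groups of FGF9, FGFR1 and FGFR2 values tested, 1 library stood apart from the rest of its group by Dixon's criterion. Chance meets this criterion in about 1 of 20 groups only where values are normally distributed. The values here were untransformed CPM of small groups, some with few counts, so that rate need not hold for them. Whether 3 of 11 groups is more than chance gives was therefore not tested. In cyclic glands, mare B had 171.2 CPM of FGFR1, against 3.128 CPM in the nearest other cyclic glandular library. FGFR2 reached 266 CPM in the cyclic luminal library of mare C, against 22.37 CPM in the nearest other cyclic luminal library. In glands of the same cyclic biopsy, FGFR2 reached 46.92 CPM, against 6.823 CPM in the nearest other cyclic glandular library. On untransformed CPM, no library stood apart for FGF9 by this criterion, the pregnant luminal library of mare M included. The log2 values shown in the figures were not examined in this way. Which libraries stand apart can depend on the scale, so the criterion does not settle whether that library is an outlier.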

How the results depend on the processing

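FGF9 counts were low outside luminal epithelium and in mare M, where no library reached 10 counts, and states cannot be compared there. On average the glandular libraries were not shallower than the pregnant luminal ones, but single libraries were. The cyclic glandular libraries of mares M (222623 counts) and U (360167 counts) were shallower than the pregnant luminal ones of B, C and U. Mean total counts were 812268 in pregnant and 565663 in cyclic glandular libraries, against 328851 in pregnant luminal ones. FGF9 in luminal epithelium, pregnant over cyclic, was positive under all 19 alternatives (3.01 to 5.15), and 7 kept the call. The call was lost with no filter (3.94), limma-voom (4.002), a joint fit of 21 libraries (3.93), the replicate block over mares (3.56), and limma on the deposited signal with a pseudocount of 1 in 21 libraries (3.49) or 19 libraries (5.15) or of 10 (3.01). Leaving out single libraries gave 3.37 to 4.41. The pregnant luminal over glandular difference of FGF9 kept its call under 8 of 10 alternatives, among them no replicate block (7.14), and ranged from 5.90 to 7.63 when mares were left out. The pregnancy difference, luminal minus glandular, did not pass under any alternative (2.26 to 4.12), nor did the cyclic luminal over glandular (2.87 to 4.53) or the luminal over stromal difference (3.06 to 6.48). For the cyclic luminal over glandular difference, DESeq2 gave an estimate (2.93) but no adjusted p. Without a filter FGF9 differed by 0.13 in glands and -1.80 in stroma, and in a joint fit by 0.09 and -1.83, all without passing; the other settings left it untested there. No replicate block was possible in stroma, whose states share mare M alone. Cyclic luminal over glandular FGF9 could not be fitted without mare B or C, nor luminal over stromal without B or U, because the filter removed it. Over the alternatives, genes called numbered 0 to 83 in luminal epithelium (19 in the main analysis), 33 to 765 and 8 to 486 between the epithelia in pregnancy and the cycle (114 and 82), 18 to 537 against stroma (46) and 0 to 48 for the difference of differences (1).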

Other observations

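Genes beside FGF9 on chromosome 17 were looked up after its values had been seen, by their order in a RefSeq table of another horse assembly. MICU2, a mitochondrial calcium regulator and the nearest gene on one side, differed by -0.11 ± 1.54 between pregnant and cyclic luminal libraries on the log2 scale (SE; edgeR adjusted p = 0.995). ZDHHC20, a palmitoyltransferase, differed by -0.13 ± 0.94 (SE; edgeR adjusted p = 0.993). LATS2, a kinase of the Hippo pathway, and MIPEP, a mitochondrial peptidase, differed by 1.80 ± 1.52 and -2.91 ± 1.59 (SE; edgeR adjusted p = 0.921 and 0.697). None of these neighbours passed in luminal epithelium.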
